A study of Mus musculus with 4 samples.

Results

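The genes described here are 10 AP-1 and immediate early genes: Fos, Fosb, Jun, Junb, Egr1, Nr4a1, Atf3, Ier2, Dusp1 and Dusp2. They were chosen by name, as the probes that are not controls and whose gene name in the scanner files is on this list. Each gene had 1 probe, and the 10 genes are part of 18161 genes tested on the arrays. All 10 were well above background on 4 of 4 arrays in both genotypes.

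The RNA came from whole ureters of NMRI mouse embryos at stage E18.5. Mutant ureters, called ΔNp63-cKO in the labels and cKO below, carried Pax2-cre/+ on a homozygous floxed background, Trp63(dN-flox/dN-flox), in which Cre was to remove the ΔN form of p63. Pax2 is active in the nephric duct and its derivatives, which include the ureter epithelium. Control ureters were Trp63(dN-flox/?), with the second allele not specified and no Cre listed, so that a floxed allele was common to both groups. The 4 arrays, of 2 colours each, carried 1 cKO and 1 control RNA, with the cKO in the red channel on arrays 1 and 3 and in the green channel on arrays 2 and 4. Array 2 held a male pair and arrays 1, 3 and 4 female pairs. Whether an RNA came from 1 embryo or a pool is not stated in the labels. The p-values and intervals cover only the spread between arrays of the same dye orientation, with the variances of all genes as a prior. Part of that spread may be technical. The gap between the 2 orientations, which held different pairs, is not in them, while each SD covers all 4 arrays.

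The median raw signal of a channel was 460.3 to 607.3 units, and no spot was saturated. Trp63, the targeted gene, was lower in the cKO on each array (log2 ratio -2.18 ± 0.50, SD, n = 4, limma adjusted p = 0.00207). Markers of the ureter wall were present: 6 of 6 superficial urothelial and 8 of 8 smooth muscle markers passed the filter on dim probes. Markers of 2 tissues foreign to the ureter were higher in the cKO by their median. Hepatocyte markers had median ratios of 2.28, 2.59, 1.35 and 0.47 on arrays 1 to 4. Adrenal cortex markers had 0.76, 0.20, 0.33 and 0.32, with 2 of 6 risen against 4 of 8 hepatocyte markers. The part of both in the results below was not tested.

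Immediate early genes are transcribed within minutes of a stimulus, without new protein synthesis, and their short-lived mRNAs fall again soon after. Fos and Jun proteins pair through leucine zippers to form AP-1, a DNA-binding factor that acts downstream of MAP kinases. Egr1 and Nr4a1 encode other early transcription factors, Atf3 a stress-induced relative of the AP-1 proteins, and Dusp1 and Dusp2 encode nuclear phosphatases that switch MAP kinases off again.

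Of the 10 genes, Dusp2 fell in the cKO on every array, Nr4a1 rose by a call that several settings ended, and the other 8 did not pass the test. The ratio of every gene except Dusp2 differed widely from pair to pair. Of all 18161 genes tested, 8.55% were past the threshold of an adjusted p of 0.05. Those lower in the cKO were 5.63% and those higher 2.92% of all genes tested. The median log2 ratio of the 10 was 0.21 ± 0.60 (SD of the array medians, n = 4) against 0.00 ± 0.01 for all genes tested. The medians of the 10 were -0.67, 0.51, 0.09 and 0.68 on arrays 1 to 4, below 0 on array 1 and above 0 on the other 3. Their median SD over arrays was 0.58 against 0.13 for all genes, and the least variable of the 9 besides Dusp2, Dusp1 with 0.34, was at or above a level that 5.4% of all genes reached. At an unadjusted p under 0.05 there were 5 of the 10, against 23.7% of all genes. Only Dusp2 kept 1 sign on 4 arrays, which 30.6% of all tested genes did.

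**Figure D1:**
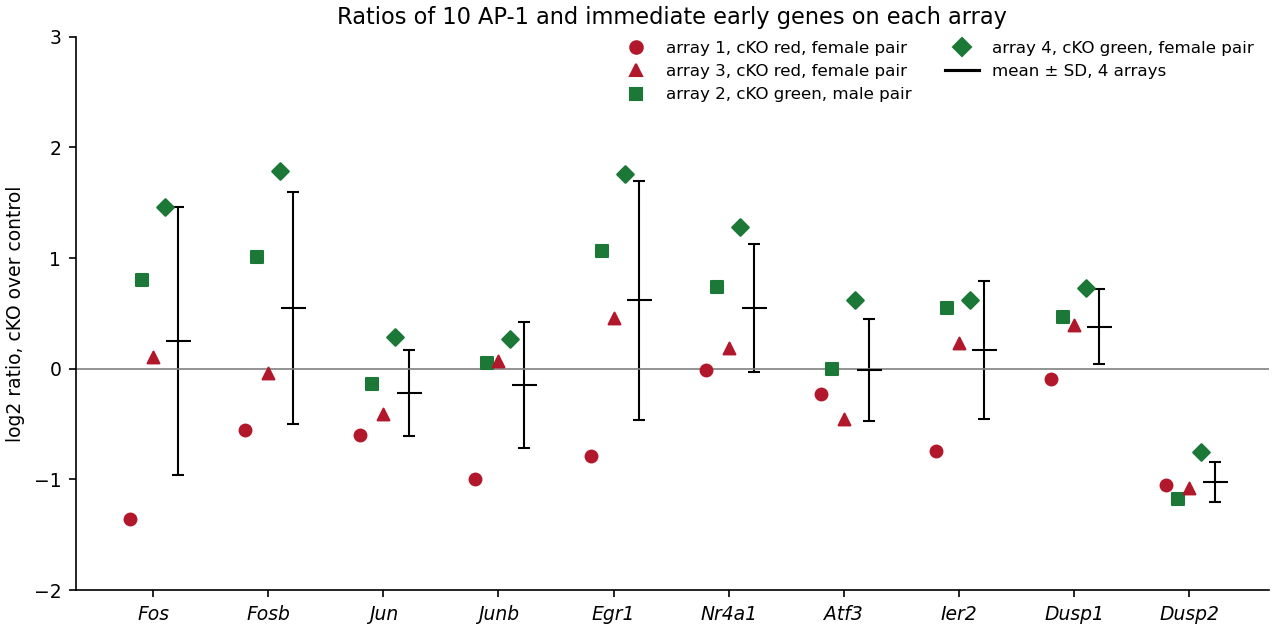
Log2 ratio of cKO over control (vertical axis) for each of the 10 genes on arrays 1 to 4, with red points for arrays with the cKO in the red channel, green points for the dye-swapped arrays, and black bars for the mean and SD. Dusp2 lies between -1.18 and -0.75 on every array, while Fos runs from -1.36 on array 1 to 1.46 on array 4.

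Dusp2, also called PAC1, is a MAP kinase phosphatase that is itself an early gene and is best known from activated lymphocytes. Its log2 ratio was -1.05, -1.18, -1.08 and -0.75 on arrays 1 to 4. The normalized log2 level was 11.14, 11.32, 11.57 and 11.77 in the cKO RNAs of arrays 1 to 4 and 12.19, 12.50, 12.65 and 12.52 in the control RNAs. All 4 cKO levels lay below all 4 control levels, as was so, in either direction, for 9.83% of all genes. The mean ratio was -1.02 ± 0.18 (SD, n = 4), a fall of 2.02-fold with a limma adjusted p of 0.003 and a 95% interval of -1.23 to -0.81. Under the 15 alternative settings the ratio ranged from -1.12 to -0.91 and the adjusted p from 0.000368 to 0.0249. The probe lies on chromosome 2, 127163930 to 127163989 (mm9), in the mRNA NM_010090. Here and below, the files do not say whether a probe lies in a coding exon or a UTR.

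Markers of basal urothelium also fell, with medians of -2.30, -1.94, -2.25 and -2.21 on arrays 1 to 4. The basal median was nearest 0 on array 2, where Dusp2 was lowest at -1.18. Single basal markers differed in this: Krt5 was nearest 0 on array 2 (-2.72), while Krt15 was lowest there (-2.74). Of 10 basal markers 9 fell, with a median ratio of -2.22 ± 0.16, and their summed level was 30400 to 38500 in the cKO RNAs against 154000 to 189000 in the controls. All 10 were well above background on 4 arrays in both genotypes. Of 9 markers shared by epithelia 4 fell (median -0.46), and of 6 superficial urothelial markers 0 passed the test (median -0.34). The leukocyte list held no marker particular to lymphocytes, so lymphocytes were not examined. In that list 0 of 7 passed (median -0.06, summed levels 16600 to 21000 in the cKO and 17200 to 21500 in the controls). In the mast cell list 3 of 5 tested fell (median -0.45). The part of these cells in the Dusp2 ratio was not tested. In RNA from whole ureters, fewer cells of a type and less RNA per cell cannot be told apart.

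Among all other genes tested, those with array ratios most like Dusp2 were Alox12, a lipoxygenase, and Ntf5, a neurotrophin. The root mean square difference from Dusp2 over the 4 arrays was 0.0603 for Alox12 and 0.0779 for Ntf5. Next came Vsig8 at 0.131, the pyruvate dehydrogenase kinase gene Pdk4 at 0.134 and the Notch ligand gene Jag2 at 0.151. The mean log2 ratios of these 5 genes lay between -1.11 and -0.94, with limma adjusted p-values from 0.00123 to 0.00241.

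Fos, the founding AP-1 gene, was among the most variable genes of the series. Its log2 ratio was -1.36, 0.80, 0.11 and 1.46 on arrays 1 to 4. The normalized log2 level was 13.83, 14.87, 15.42 and 16.19 in the cKO RNAs and 15.19, 14.07, 15.31 and 14.73 in the control RNAs. The lowest and the highest level were both in cKO RNAs, with all 4 controls between them. The mean ratio was 0.25 ± 1.21 (SD, n = 4, limma adjusted p = 0.627, 95% interval -0.38 to 0.89). That interval, unlike the SD, leaves out the gap between the dye orientations. An SD of that size or larger was found for 17 genes, 0.0936% of those tested. The probe lies on chromosome 12, 86817900 to 86817959 (mm9), in NM_010234.

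Fosb, which encodes a second Fos protein that pairs with Jun, followed Fos from array to array. Its log2 ratio was -0.55, 1.01, -0.04 and 1.79 on arrays 1 to 4, with a mean of 0.55 ± 1.05 (SD, n = 4, limma adjusted p = 0.101). The control RNAs alone spanned 3.13 on the log2 scale, from 10.50 in control 2 to 13.63 in control 3. The cKO RNAs spanned 2.97, from 11.52 in cKO 2 to 14.49 in cKO 4. Both RNAs of array 2, the male pair, were thus the lowest of their genotype. A control span this wide was found in 0.149% of all genes, whose median span was 0.32. Without array 2 the fitted Fosb ratio was 0.75 and passed the test (limma adjusted p = 0.0433). That fit weighs the dye orientations equally, so array 4 alone stood for the orientation with the cKO in green. The value of 0.75 is therefore not the plain mean of the arrays left. The probe lies on chromosome 7, 19888168 to 19888227 (mm9), in NM_008036.

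Jun and Junb, which encode the Jun side of AP-1, varied less and had means below 0. The log2 ratio of Jun was -0.60, -0.14, -0.41 and 0.29 on arrays 1 to 4, with a mean of -0.22 ± 0.39 (SD, n = 4, limma adjusted p = 0.218). Its cKO levels lay between 12.65 and 13.15 and its control levels between 12.86 and 13.50. The log2 ratio of Junb was -1.0, 0.05, 0.07 and 0.27, with a mean of -0.15 ± 0.57 (SD, n = 4, limma adjusted p = 0.676). One RNA stood low for Junb: cKO 1 was at 9.06 and the other 7 RNAs lay between 9.92 and 10.46. Without array 1 the fitted Junb ratio was 0.11. The probe of Jun (NM_010591) lies on chromosome 4, 94716928 to 94716987, and that of Junb (NM_008416) on chromosome 8, 87501881 to 87501940 (mm9).

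**Figure D2:**
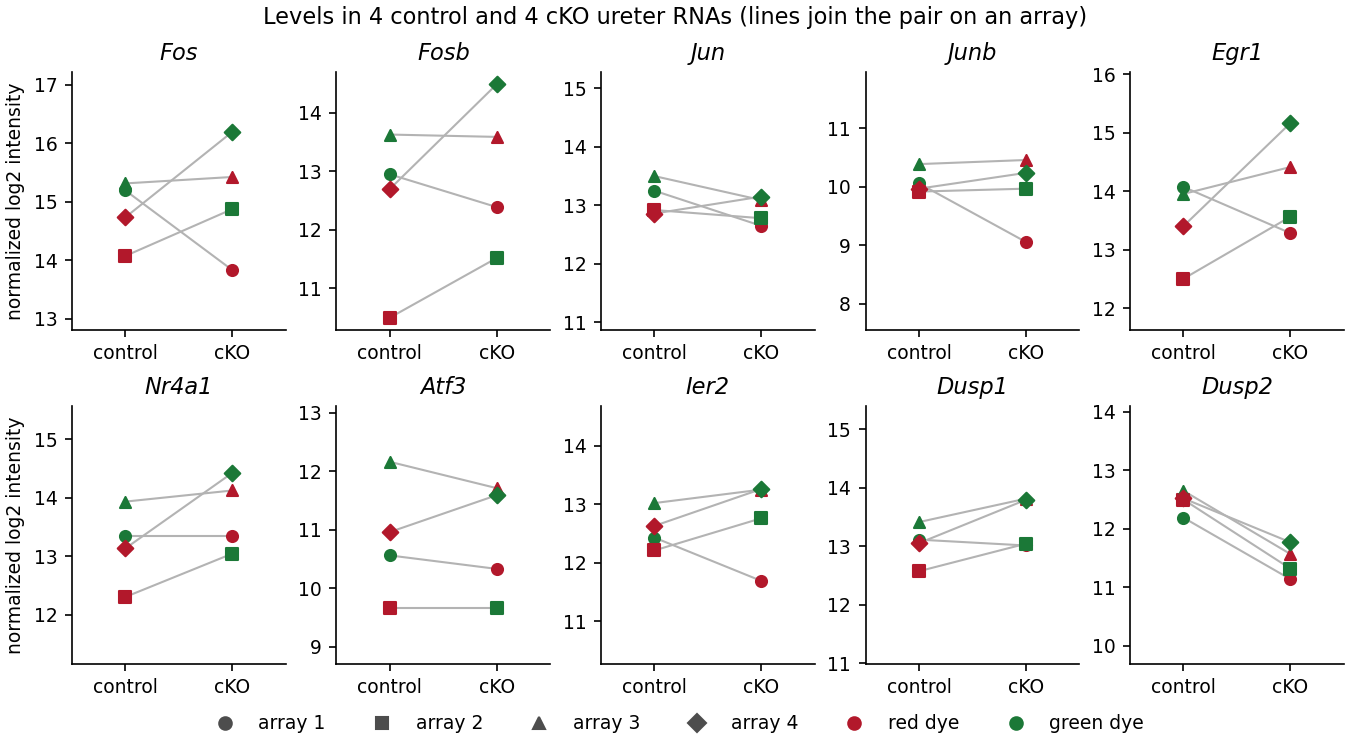
Normalized log2 intensity (vertical axis, with the same number of units in each panel) of the 10 genes in 4 control and 4 cKO RNAs, with a line joining the pair on an array, a marker shape per array, and red or green for the dye. The groups are apart for Dusp2, with control levels of 12.19 to 12.65 above cKO levels of 11.14 to 11.77, and overlap for the other 9 genes.

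Egr1, a zinc finger factor induced through MAP kinases and serum response factor, had the highest mean of the 10. Its log2 ratio was -0.79, 1.06, 0.46 and 1.76 on arrays 1 to 4, with a mean of 0.62 ± 1.08 (SD, n = 4, limma adjusted p = 0.181). The cKO levels ranged from 13.28 in cKO 1 to 15.16 in cKO 4, and the control levels from 12.50 in control 2 to 14.07 in control 1. Higher cKO levels were thus seen on 3 of 4 arrays, and a lower one on array 1. The probe lies on chromosome 18, 35024395 to 35024454 (mm9), in NM_007913.

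Nr4a1, an orphan nuclear receptor also known as Nur77, rose 1.47-fold at the threshold used, but the 2 groups overlapped. Its log2 ratio was -0.01, 0.74, 0.19 and 1.28 on arrays 1 to 4, and the mean was 0.55 ± 0.58 (SD, n = 4, limma adjusted p = 0.0364). The cKO levels were 13.35, 13.04, 14.12 and 14.42 and the control levels 13.35, 12.30, 13.93 and 13.13. The pair of array 1 did not differ, and the largest gap was on array 4. The limma p rests on the spread within each dye orientation and on the prior, and with no term for the dye the adjusted p was 0.152. The call ended without array 1 (fitted ratio 0.60, limma adjusted p = 0.0974), array 3 (0.50, 0.128) or array 4 (0.42, 0.0715). With the deposited value table the limma adjusted p was 0.0898. The probe lies on chromosome 15, 101105071 to 101105130 (mm9), in NM_010444.

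Atf3 and Ier2 had means near 0. Atf3, which encodes a stress-induced transcription factor, had log2 ratios of -0.23, 0.00, -0.45 and 0.62 on arrays 1 to 4 and a mean of -0.01 ± 0.46 (SD, n = 4, limma adjusted p = 0.962). Its levels differed between arrays far more than between genotypes. Both RNAs of array 2 were at 9.66, while the pair of array 3 was at 11.71 in the cKO and 12.16 in the control. Ier2, which encodes a small nuclear protein, had log2 ratios of -0.74, 0.55, 0.23 and 0.62 and a mean of 0.17 ± 0.62 (SD, n = 4, limma adjusted p = 0.607). The lowest of its 8 levels was cKO 1 at 11.69 and the highest cKO 4 at 13.26. The probe of Atf3 (NM_007498) lies on chromosome 1, 192994547 to 192994606, and that of Ier2 (NM_010499) on chromosome 8, 87186214 to 87186273 (mm9).

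Dusp1, also called MKP-1, is the stress-inducible relative of Dusp2 and dephosphorylates p38, JNK and ERK. Its log2 ratio was -0.09, 0.47, 0.40 and 0.73 on arrays 1 to 4, with a mean of 0.38 ± 0.34 (SD, n = 4, limma adjusted p = 0.0903, 95% interval 0.13 to 0.63). The sign of its mean was opposite to that of Dusp2. The cKO levels lay between 13.01 and 13.81 and the control levels between 12.57 and 13.41, so the groups overlapped. The Dusp1 probe is to NM_013642, on chromosome 17.

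The mean ratios of the 9 genes other than Dusp2 were higher on the arrays with the cKO in green than on those with the cKO in red. For Fos the means of the red and green orientations were -0.62 and 1.13, for Fosb -0.30 and 1.40, for Egr1 -0.16 and 1.41, and for Nr4a1 0.09 and 1.01. The gap was 0.45 for Dusp1 and 1.75 for Fos, the ends of the range over the 9, and a gap of at least 0.45 was found in 1.6% of all genes. For Dusp2 the means were -1.07 and -0.97. The gap was above 0 for 10 of the 10 genes and for 57.8% of all genes, and for 8 of the 10 both green-orientation ratios exceeded both red-orientation ratios, as for 22.5% of all genes. In limma's test of the dye term 0 of the 10 and 0 of all genes passed (adjusted p = 0.833 for the 9 and 0.912 for Dusp2). At an unadjusted p under 0.05 there were 7 of the 10 and 958 of all genes (5.28%). The test of the dye term was added after the values had been seen. Each orientation held 2 arrays with RNAs of their own, so the dye and the pair of ureters cannot be told apart.

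**Figure D3:**
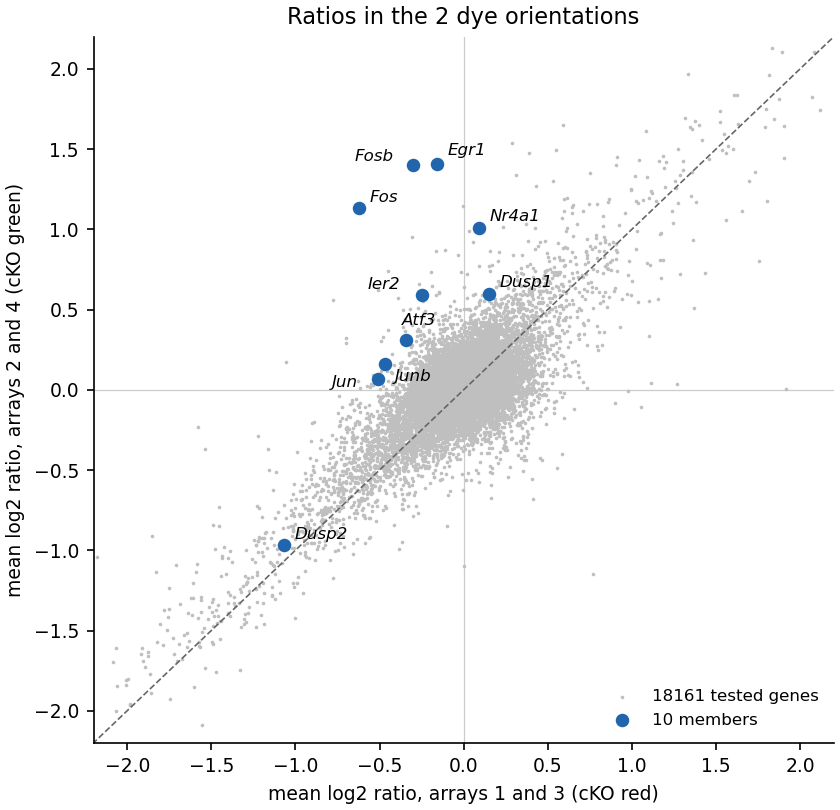
Mean log2 ratio on the arrays with the cKO in green (vertical axis) against that on the arrays with the cKO in red (horizontal axis) for 18161 tested genes in grey, with the 10 genes in blue and equal values on the dashed line (37 genes lie beyond the axes). All 10 lie above the line, Fos farthest with a gap of 1.75 and Dusp2 nearest with a gap of 0.10.

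Most of the 10 genes shared 1 order of the arrays. The orders counted here were taken from these same genes after their values had been seen. The counts therefore describe the genes and carry no test. A rise in the order of arrays 1, 3, 2 and 4 also contains the gap between orientations described above. The ratio rose in the order of arrays 1, 3, 2 and 4 for 7 of the 10 genes, against 4.85% of all genes. The lowest ratio was on array 1 and the highest on array 4 for 8 of the 10, against 8.43% of all genes. Array 1 was the one with 0 of the 9 genes above 0, array 4 the one with 9 of 9. The SD of the spot ratios of a probe within an array was between 0.00483 and 0.13 over the 10 genes. Array 1 had more of its spots well above background than the other arrays (90.0% in green and 82.6% in red, against 75.0% to 76.5% and 72.4% to 72.9%), and the part of this in its ratios was not tested.

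Among tested genes outside the 10, those with array ratios most like Fos were Malat1, 3110054G05Rik, H2bc8, Crhbp and Arc. Malat1, a long nuclear RNA, came nearest, with ratios of -0.41, 0.74, 0.19 and 1.01 on arrays 1 to 4 and a root mean square difference from Fos of 0.524. Arc, an early gene first studied in neurons, had ratios of -0.39, 0.30, 0.40 and 0.98 and a difference of 0.609. None of these 5 genes passed the test, with limma adjusted p-values from 0.121 for Malat1 to 0.94 for H2bc8.

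The sequence upstream of the annotated start was read for 8 of the 10 genes (not Egr1 and Ier2) from RefSeq on GRCm38.p6. It is shown for 4 of the 7 genes that shared the array order of Fos and for Dusp2, which did not share it. Jun also shared that order, and its window is described below without being shown. Capitals mark TGACG on either strand, the core of the cAMP response element, and GCGNGGGCG on either strand, the site bound by Egr proteins.
Fos, chr12:85473640-85473889, plus strand: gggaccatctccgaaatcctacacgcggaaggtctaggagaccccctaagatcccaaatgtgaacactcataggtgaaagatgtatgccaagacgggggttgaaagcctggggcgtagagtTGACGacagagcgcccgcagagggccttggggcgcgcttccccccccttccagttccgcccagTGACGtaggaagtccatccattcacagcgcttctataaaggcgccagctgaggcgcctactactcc
Fosb, chr7:19310046-19310295, minus strand: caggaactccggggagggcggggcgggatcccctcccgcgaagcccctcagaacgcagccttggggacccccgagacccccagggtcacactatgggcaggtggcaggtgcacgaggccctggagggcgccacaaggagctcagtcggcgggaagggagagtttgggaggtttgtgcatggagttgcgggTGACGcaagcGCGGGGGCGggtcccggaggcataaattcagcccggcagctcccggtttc
Nr4a1, chr15:101266596-101266845, plus strand: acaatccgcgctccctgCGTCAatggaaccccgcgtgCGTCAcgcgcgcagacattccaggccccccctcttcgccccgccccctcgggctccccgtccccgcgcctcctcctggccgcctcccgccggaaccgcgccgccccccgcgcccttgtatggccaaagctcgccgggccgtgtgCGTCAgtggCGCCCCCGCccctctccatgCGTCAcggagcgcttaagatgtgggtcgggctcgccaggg
Dusp1, chr17:26508473-26508722, minus strand: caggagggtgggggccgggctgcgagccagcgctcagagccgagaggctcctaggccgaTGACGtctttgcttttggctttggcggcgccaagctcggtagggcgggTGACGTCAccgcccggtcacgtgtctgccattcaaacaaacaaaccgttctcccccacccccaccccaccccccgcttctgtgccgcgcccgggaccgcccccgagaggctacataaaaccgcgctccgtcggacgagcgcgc
Dusp2, chr2:127335909-127336158, plus strand: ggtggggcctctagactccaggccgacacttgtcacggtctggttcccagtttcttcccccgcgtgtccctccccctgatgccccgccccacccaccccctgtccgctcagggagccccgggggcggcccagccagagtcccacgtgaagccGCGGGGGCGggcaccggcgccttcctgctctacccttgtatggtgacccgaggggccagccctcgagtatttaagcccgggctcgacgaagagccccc
TGACG was present upstream of 6 of the 8 genes and of 17.8% of 32851 promoter entries of the same 250 bases. Fos held it at -129 and -66 from the start, Fosb at -60, Nr4a1 at 4 places and Dusp1 at 3, of which a pair overlaps in the full palindrome TGACGTCA at -143. The palindrome occurred in 1.55% of all entries. Junb held TGACG at -106 and Atf3 at -7, and neither gene shared the array order of Fos. Jun and Dusp2 had no TGACG in this window. GCGNGGGCG was present in Fosb, Nr4a1 and Dusp2, at -50, -60 and -98, and in 4.7% of all entries. The serum response element (CC, 6 letters that are A or T, then GG) and TGANTCA, the AP-1 site, were found in 0 of the 8 windows. They occurred in 1.47% and 6.75% of all entries. Sequence farther than 250 bases upstream was not searched, so sites there are not covered. These matches describe letters in a window and say nothing about binding in the ureter.

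Related genes were read from lists named for their roles. Of 45 tested other immediate early genes 1 rose, 6 fell and 38 did not pass (15.6% past the threshold against 8.55% of all genes), with a median log2 ratio of 0.10 ± 0.12. Gadd45a, a growth arrest gene, fell 1.61-fold (-0.68 ± 0.14, limma adjusted p = 0.00344), and Ier5 fell 1.41-fold (-0.50 ± 0.05, 0.0063). Klf10, a TGF-beta-inducible Krüppel-like factor, fell 1.48-fold (-0.57 ± 0.17, 0.014, but 0.0676 without array 1 and 0.0527 without array 3). Zfp36l2, an mRNA-destabilizing zinc finger protein, fell 1.29-fold (-0.37 ± 0.19, 0.0233), with adjusted p-values of 0.0652 to 0.0977 when any array was left out. Gadd45a, Ier5, Klf10 and Zfp36l2 each had the same sign on 4 arrays and did not share the array order of Fos. The gap between dye orientations was above 0 in 35 of the 45 genes, against 57.8% of all genes. Its median was 0.23 against 0.03 for all genes.

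The 17 tested genes of the other AP-1 family members and partners had a median log2 ratio of 0.00. Jdp2, a repressor that pairs with Jun, rose 1.32-fold (0.40 ± 0.09, limma adjusted p = 0.0166). That call ended without array 1 (0.078), array 2 (0.0641) or array 4 (0.0703).

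Of 19 tested dual-specificity phosphatases besides the 2 already described 4 fell, 1 rose and 14 did not pass, with a median of -0.09. The share past the threshold was 26.3% against 8.55% of all genes. Dusp4, a nuclear phosphatase closely related to Dusp1 and Dusp2, fell 2.15-fold (-1.10 ± 0.17, limma adjusted p = 0.000847), with ratios of -1.29, -1.03, -1.18 and -0.91 on arrays 1 to 4. Its fall was thus close in size to that of Dusp2 and opposite in sign to the Dusp1 mean. Dusp14 and Dusp16 fell 1.62-fold and 1.63-fold (adjusted p = 0.00772 and 0.00903), and Dusp26 rose 1.30-fold (0.38 ± 0.15, 0.0134, but 0.0558 to 0.072 without array 1, 3 or 4).

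In the list of upstream kinases and factors 5 of 36 tested genes fell, 0 rose and 31 did not pass, with a median of -0.02. The share past the threshold was 13.9% against 8.55% of all genes. Mapk10, the JNK3 kinase gene, fell 1.86-fold (-0.89 ± 0.19, limma adjusted p = 0.00275). Hras fell 1.32-fold (-0.40 ± 0.03, 0.0115, but 0.0644 without array 1 and 0.0529 without array 4). Map3k5, the stress kinase ASK1, fell 1.56-fold (-0.64 ± 0.20, 0.0164, but 0.0666 without array 1 and 0.0527 without array 4). Mapk13, a p38 kinase of epithelia, fell 1.26-fold (-0.33 ± 0.14, 0.0257), with 0.0641 to 0.119 when any array was left out.

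Genes listed as textbook AP-1 targets moved in both directions. Of 16 tested 2 rose, 3 fell and 11 did not pass (31.2% past the threshold against 8.55% of all genes), with a median of 0.03. Of the 3 that fell, Areg and Krt6a entered the test through their control signal alone, so the count and the percentage rest partly on that filter. Areg, the EGF receptor ligand amphiregulin, had a mean of -1.27 ± 0.10 (SD, n = 4, limma adjusted p = 0.000634). Its cKO signal was above background on 2 of 4 arrays, so that Areg was tested through its control signal alone, and its size depends on the processing: the ratio was -2.68 with Agilent's processed signals and -1.59 with the deposited value table. Ivl, the cornified envelope protein involucrin, had ratios of -2.40, -1.49, -2.06 and -2.45 on arrays 1 to 4. Spp1, the matrix protein osteopontin, had 1.98, 3.02, 3.13 and 2.34 (adjusted p = 0.00275 for Ivl and 0.003 for Spp1). Krt6a had a mean of -0.45 (adjusted p = 0.0329, and 0.079 to 0.104 without array 2, 3 or 4), and its cKO signal too was above background on 2 of 4 arrays. The Krt6a ratio was -1.35 with Agilent's processed signals and -0.18 with the deposited value table (limma adjusted p = 0.0114 and 0.233), and neither Areg nor Krt6a was tested where both genotypes had to be above background. None of these 4 genes followed the array order 1, 3, 2, 4 of Fos.

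In the list of heat shock and stress genes 3 of 18 tested fell, 0 rose and 15 did not pass, with a median of 0.05 ± 0.03. The share past the threshold was 16.7% against 8.55% of all genes. The medians were 0.04, 0.07, 0.07 and -0.01 on arrays 1 to 4, so the list median did not share the swing from -0.67 to 0.68 in the median of the 10 genes. Single genes of the list could differ from its median. For 3 of the 18 both green-orientation ratios exceeded both red-orientation ratios, as for 22.5% of all genes. Sesn2, a stress-induced sestrin, fell 1.26-fold (limma adjusted p = 0.0208), and the adjusted p was 0.0585 to 0.101 with any array left out. Bag3, a co-chaperone, fell 1.21-fold (0.0406, and 0.112 to 0.177 with any array left out). Ddit4, an inhibitor of mTOR signalling, fell 1.33-fold (0.0452, and 0.0945 to 0.179 without array 1, 2 or 3).

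**Figure D4:**
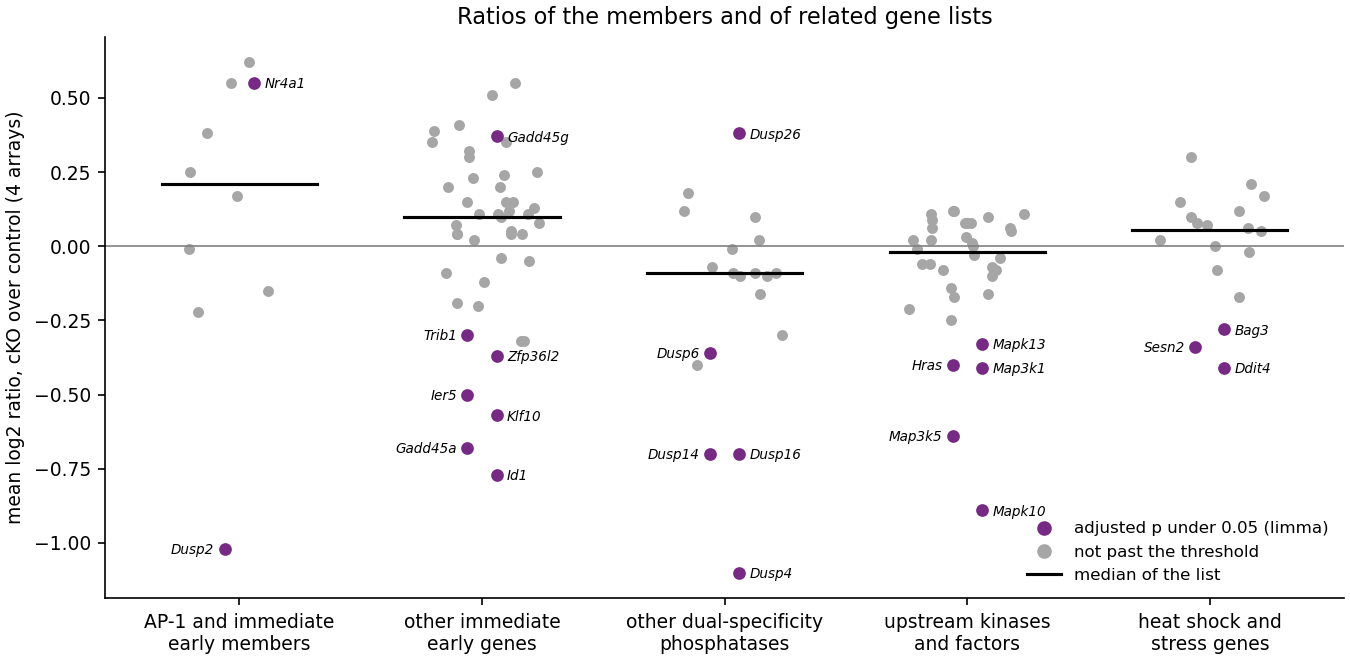
Mean log2 ratio of cKO over control (vertical axis, 4 arrays) for the 10 genes and the tested genes of 4 related lists (other AP-1 genes and textbook AP-1 targets are not drawn), with genes at a limma adjusted p under 0.05 in purple and named, other genes in grey, and a bar at the list median. Dusp2 at -1.02 and Dusp4 at -1.10 are the lowest of the genes shown.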

How the data were processed

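The deposited scanner files hold spot intensity values on a linear scale. Per the submitters' processing notes, the authors extracted these with Agilent Feature Extraction, version 10.7.3.1. The authors' value table is on a log2 scale, as a ratio of cKO to control. Its scale and direction were found by comparison with the scanner values (slopes 0.99 to 1.00, column medians of 0), and the authors' further steps are not given in the sources used here. Mean signals were corrected with normexp (offset 50) and normalized within arrays by loess with control spots at weight 0. Outlier spots (3.04% to 3.58%) were left out, and spots of a probe were averaged. Levels are channel values after Aquantile normalization between arrays.

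Probes with a gene name were tested if well above background in most spots on 4 arrays in at least 1 genotype, and the brightest probe stood for a gene. Gene names came from RefSeq on GRCm38.p6, probe positions from the files (mm9). The test was limma's (version 3.58.1, R 4.3.3), with dye orientation in the model, 2 residual degrees of freedom and Benjamini-Hochberg adjustment over 18161 genes. The script was tested on simulated ratios. The number of arrays limits the precision. Each ratio pairs the RNAs of 1 array.

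The members and lists were chosen with earlier results of these data known. All 10 members are named. From each other list the text names up to 4 genes past the threshold with the lowest p, and for Fos and Dusp2 the 5 genes nearest in their ratios. A gene chosen by this rule is not reported here.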

Additional observations from a re-analysis of the deposited data

How the results depend on the processing

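The fall of Dusp2 stayed past the threshold under 15 of 15 alternatives, and the Nr4a1 call under 7 of 15, with adjusted p-values from 0.0191 to 0.743 (limma). Of 463 values under the alternatives, over all genes that the naming rule chose, 393 kept direction and side of the threshold, 62 lost their call, 1 gained one and 7 changed sign. Those 7 were near 0: Fos at -0.11 and Ier2 at -0.07 without array 3, Junb at 0.11 without array 1, and Atf3 at 0.00 with Agilent's processed signals and with the deposited value table, 0.14 without array 2 and 0.04 without array 3. With 1 array left out, the ratio ranged from -0.11 to 0.62 for Fos, -0.42 to 0.11 for Junb, -0.17 to 0.14 for Atf3 and -0.07 to 0.41 for Ier2. With 1 array left out these are fitted ratios, in which the 2 dye orientations count equally, and not plain means of the arrays left. Without array 3, array 1 alone stood for the orientation with the cKO in red, at -1.36 for Fos and -0.74 for Ier2. Beyond this weighting, the cause of these changes was not tested. The fit reported above called 530 genes higher and 1023 lower; the deposited value table gave 259 and 596. Separate channels with the replicate block (correlation 0.633) gave 901 and 1428, and with no replicate block 120 and 438. The number of the 10 genes past the threshold fell from 2 to 1 with the deposited table, with no filter, with no dye term and in both fits of separate channels. The number with 1 sign on every array rose from 1 to 2 with Agilent's processed signals and with the deposited table. With an array left out, 277 to 359 genes were higher and 554 to 768 lower, 1 to 3 of the 10 genes passed, 1 to 7 had 1 sign, and their median ranged from -0.02 without array 3 to 0.45 without array 1. Leaving out array 1 gave 277 higher and 584 lower genes; for array 3 these counts were 287 and 709, and for array 4 they were 297 and 554. In all other alternatives the median of the 10 genes lay between 0.21 and 0.25. With 3 arrays there is 1 residual degree of freedom.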

Other observations

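Several other immediate early genes had their highest ratio on array 4. The genes named here were picked after their values had been seen and carry no test. How many genes of the list, or of all genes, had their highest ratio on array 4 was not counted. Ccn1, a matricellular early gene, had ratios of -0.05, 0.62, 0.11 and 1.36 on arrays 1 to 4. Egr2, a zinc finger relative of Egr1, had -0.16, -0.40, 0.04 and 1.12. Nr4a2, the nearest relative of Nr4a1 among the tested genes, had 0.03, -0.01, 0.01 and 0.74, and Nfkbiz, a nuclear IκB protein, had -0.51, -0.05, -0.04 and 0.82. None of the 4 passed the test over all genes (limma adjusted p = 0.0781, 0.781, 0.433 and 0.891). Myc, another early gene, differed from them, with ratios between 0.04 and 0.28. Other genes of the list also had their highest ratio elsewhere, such as Ier3 on array 3 (1.29) and Hbegf on array 2 (0.65).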
